A study of Papio papio with 23 samples.

Results

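The genes described here are the replication-dependent histone genes measured in whole blood of baboons before and after gamma irradiation. They were chosen by name and by signal: a gene name that starts with HIST1H, HIST2H, HIST3H or HIST4H, with some probe well above background on at least 4 of 23 arrays. Of 70 such names on the array, 61 passed, among 21130 genes tested in all. They comprise 4 H1, 14 H2A, 18 H2B, 13 H3 and 12 H4 genes. The other 9 names were HIST1H1A, HIST1H1T, HIST1H2AG, HIST1H2AL, HIST1H2BA, HIST1H4G, HIST2H4A, HIST3H2A and HIST4H4, each well above background on 0 to 3 arrays, and they were not tested. Of the 61 genes, 53 were well above background on all 23 arrays. The probe descriptions call HIST1H2APS1 a pseudogene and mark HIST2H2BA as a non-coding entry, and both were kept because the rule goes by name.

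All animals were adult male Papio papio with a study mean age of 8.1 years (SD 3.3). Group H0 holds 5 baboons sampled before irradiation and described as healthy and unexposed. Group H1-2 holds 4 baboons that later developed low to medium haematological acute radiation syndrome (HARS, the fall in blood cells after irradiation), and group H2-3 holds 5 baboons with the medium to severe form. Both irradiated groups were sampled on day 1 and on day 2, and the titles number the same baboons on both days. Irradiation was by cobalt gamma rays under anaesthesia, as total or partial body irradiation, at an equivalent whole-body dose of 2.5 or 5 Gy. Dose and field are not given per animal, so neither was analysed here. Whether the H0 baboons were among those later irradiated is not stated.

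Replication-dependent histone genes supply the core histones H2A, H2B, H3 and H4 and the linker histone H1 that package newly made DNA, and most of them are transcribed mainly in S phase. Their mRNAs typically end in a conserved stem-loop, bound by the stem-loop binding protein, in place of a poly(A) tail. Some of the genes also give polyadenylated transcripts, which have been described in cells that no longer divide. Most circulating blood cells do not divide. Labelling by reverse transcription and in vitro transcription often starts at a poly(A) tail. The labels name the kit and not the primer, so which form of the histone mRNA was labelled is not given.

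The stem-loop sequences show which probes reach the end of a replication-dependent mRNA. The 16-letter stem-loop motif, GGCNCTTTT followed directly by NAGNGCC (N is any base, both strands searched), occurred in 6 of 71 kept histone probes (8.45%) and in 7 of all 50599 probes (0.0138%). The seventh probe carries a transcript identifier and no histone name. The left part, GGCNCTTTT, which the full motif contains, occurred alone or within it in 7 histone probes (9.86%) and on the probe strand in 0.119% of all probes. The polyadenylation hexamer AATAAA occurred in 5 histone probes (7.04%) and on the probe strand in 7.88% of all probes. A match describes the probe's letters and is no test of processing. These are the stretches around the stem-loop in the human 60-base probes, with hg19 coordinates from the deposited files, 5′ to 3′, and the motif in capitals.
HIST1H2AI (chr6:27776420-27776445, plus strand): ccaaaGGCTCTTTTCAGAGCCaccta
HIST1H2BE (chr6:26184433-26184458, plus strand): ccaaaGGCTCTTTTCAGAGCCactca
HIST1H2BF (chr6:26200191-26200212, plus strand): ccaaaGGCTCTTTTAAGAGCCa
HIST1H3H, second probe (chr6:27778289-27778314, plus strand): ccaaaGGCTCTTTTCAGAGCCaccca
HIST1H4K, second probe (chr6:27798954-27798976, minus strand): caaaaGGCCCTTTTTAGGGCCcc
HIST2H3A (chr1:149824662-149824685, plus strand): caaaaGGCTCTTTTCAGAGCCacc

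Histone genes of a class are near copies, so probes of different genes share bases and can share signal. A run of at least 15 identical bases linked the probe of 33 of the 61 genes to the probe of another histone gene, and values of those genes are uncertain as to the gene they come from. The stretches below show 3 such groups, with the shared bases in capitals. The HIST2H2BF probe does not match a single unbroken stretch by its coordinates, so no position is given for its window.
HIST1H2BI (chr6:26273387-26273415, plus strand): attATGAACTCCTTCGTCAACGACATttt
HIST1H2BM (chr6:27783005-27783033, plus strand): atcATGAACTCCTTCGTCAACGACATctt
HIST2H2BF (chromosome 1, minus strand): atcATGAACTCCTTCGTCAACGACATctt
HIST1H3F (chr6:26250588-26250617, minus strand): CGTGAGATCGCGCAGGACTTCAAGACCGAC
HIST1H3H (chr6:27778068-27778097, plus strand): CGTGAGATCGCGCAGGACTTCAAGACCGAC
HIST1H4H (chr6:26285526-26285555, minus strand): ttCTGAAGGTGTTCCTGGAGAACGTGATtc
HIST1H4K (chr6:27799104-27799133, minus strand): tgCTGAAGGTGTTCCTGGAGAACGTGATcc

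Levels are log2 of the background-subtracted signal minus the array's 75th percentile, taken from the brightest kept probe of a gene, and a change is the difference between group means on that scale with its standard error (SE). Levels of different probes are not amounts that can be set against each other. Human probes read baboon RNA here, so a base difference under a probe can lower a signal. Single arrays had 41.4 to 51.3% of all probes and 55 to 60 of the 61 histone genes well above background, with 75th percentiles between 80.9 and 156. No histone spot was saturated. The number of arrays limits the precision. The arrays lay on 7 slides scanned on 3 days, and slide 3 was the only slide that held both an H0 array and an irradiated one. Adjusted p-values are from limma over all 21130 genes, and a gene is called changed at an adjusted p under 0.05.

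The largest set of histone changes was in group H2-3 on day 1. Of the 61 genes, 27 changed against H0 (44.3%), where 28.4% of all genes tested did. Of these, 16 rose (15% of all genes rose) and 11 fell (13.5% of all genes fell). The classes differed in direction: 8 H2B genes rose and none fell, 5 H4 genes fell and none rose, 2 H1 genes fell, 3 H2A genes rose and 1 fell, and 5 H3 genes rose and 3 fell. Median changes were -0.79 for H1, 0.39 for H2A, 0.69 for H2B, 0.69 for H3 and -0.51 for H4, against 0.14 for all genes. Each class median kept its sign under the 6 other scalings, filters and probe rules tried. On the same arrays B, T and NK cell markers were lower and neutrophil and monocyte markers higher, with values given after the gene lists, and their part in these changes was not tested. The split into rises and falls depended on the scaling. It was 16 higher (26.2% of the histone genes) and 11 lower (18%) here. After quantile normalization it was 3 higher and 15 lower, so the share of histone genes that were higher (4.92%) lay below that of all genes (12.2%), and the share that were lower (24.6%) above it (15.9%). In the deposited value table it was again 3 and 15 (all genes 12.3% and 16%). With the percentile taken only over probes detected on each of the 23 arrays it was 4 and 15 (all genes 9.71% and 18.2%), and this scaling moved the median of all genes to -0.05. The excess of rises over the share of all genes was therefore not present under these 3 settings.

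**Figure D1:**
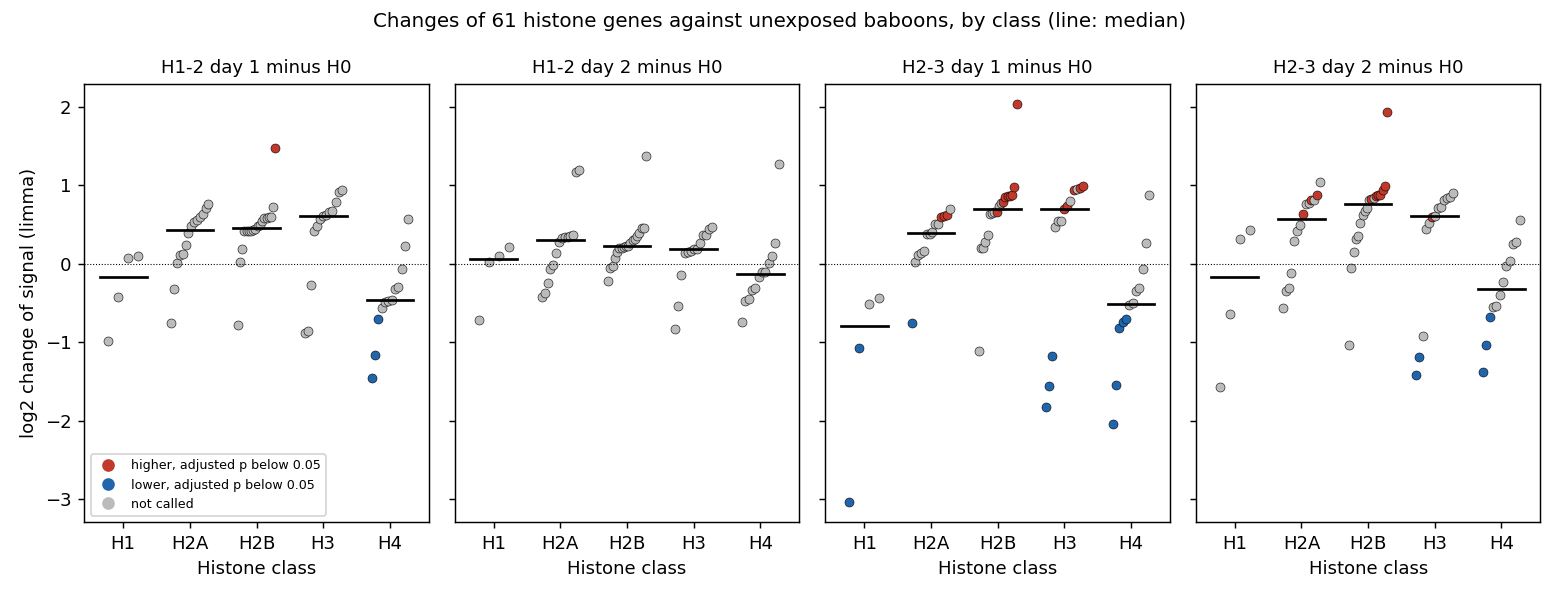
Log2 change of each of the 61 histone genes against group H0 (vertical axis), by histone class (horizontal axis), in the 4 irradiated groups; each point is a gene, red where it was higher and blue where it was lower at an adjusted p under 0.05, grey otherwise, and the black line is the class median. On day 1 in group H2-3 the H2B median was 0.69 and the H4 median -0.51.

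Linker histone H1 binds the DNA between nucleosomes. HIST1H1B (probe at chr6:27834629-27834688, minus strand), which encodes an H1 made during replication, fell. Its levels were -0.86, -2.51, -0.71, -1.06 and -0.74 in the 5 H0 arrays and -4.55, -3.85, -3.47, -4.1 and -5.09 in the 5 H2-3 arrays of day 1. The groups did not overlap. The change was -3.04 ± 0.53 (SE), adjusted p = 0.000366. The probe was not well above background on any of those 5 arrays, so the fall is a bound, at least 3.59-fold lower, with the dim group set at the higher of each array's lowest detected signal and the probe's own. With another background correction (normexp) the change was -0.76 (adjusted p = 0.0148). HIST1H1D (chr6:26234699-26234758, minus strand) stood at 2.4, 1.68, 2.17, 2.28 and 1.81 in H0 and at 1.1, 0.92, 0.9, 0.88 and 1.21 on day 1, again without overlap, and fell by 1.07 on the log2 scale (SE 0.25, adjusted p = 0.00301). The other linker genes did not pass. HIST1H1C stood at 6.88, 7.4, 7.51, 5.81 and 6.43 in H0 and at 6.52, 5.52, 5.7, 6.32 and 7.37 on day 1 (change -0.52 ± 0.46 (SE), adjusted p = 0.444), and HIST1H1E changed by -0.43 ± 0.42 (SE) with overlapping groups.

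Among H2A genes, whose products pair with H2B in the nucleosome, the only fall was that of HIST2H2AC (chr1:149858863-149858922, plus strand). Its levels were 4.0, 3.14, 2.77, 3.35 and 3.21 in H0 and 3.16, 2.14, 2.27, 2.61 and 2.5 on day 1, a change of -0.76 ± 0.24 (SE), adjusted p = 0.0205. The first irradiated array lay above the lowest H0 array. The 3 H2A genes that rose did so by less than 1 log2 unit. With the percentile over detected probes only, no H2A gene was called higher. HIST1H2AK stood at 4.46, 4.79, 5.19, 4.73 and 4.61 in H0 and at 5.49, 5.14, 5.54, 5.17 and 5.53 on day 1 (0.62 ± 0.19 (SE), adjusted p = 0.0197). HIST1H2AJ stood at 4.23, 4.53, 4.76, 4.48 and 4.32 and 5.33, 4.92, 5.45, 4.64 and 4.99 (0.6 ± 0.18 (SE), adjusted p = 0.0165), and HIST1H2AH at 3.87, 4.11, 4.33, 4.08 and 4.16 and 4.96, 4.54, 5.01, 4.27 and 4.73 (0.59 ± 0.19 (SE), adjusted p = 0.0208). In all 3 genes the groups overlapped. HIST1H2AC, an H2A gene known for transcripts outside S phase, stood at 2.07, 2.46, 2.59, 2.29 and 2.28 in H0 and at 3.08, 2.41, 2.42, 2.66 and 3.02 on day 1 and did not pass (0.38 ± 0.26 (SE), adjusted p = 0.301).

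H2B was the class in which 8 genes rose and none fell. HIST2H2BA (chr1:120914783-120914842, plus strand) rose, with levels of -3.27, -2.35, -2.3, -3.99 and -2.97 in H0 and -0.66, -1.57, -1.09, -0.79 and -0.57 on day 1. The groups were apart, and the change was 2.04 ± 0.37 (SE), adjusted p = 0.000452. Its probe was well above background on 2 of 5 H0 arrays and on 5 of 5 arrays of day 1, so the size of the rise rests partly on undetected signal. With normexp it was 0.61 (adjusted p = 0.00343). HIST1H2BI (chr6:26273375-26273434, plus strand) rose from 3.9, 4.02, 4.27, 3.64 and 3.19 to 4.9, 4.3, 4.46, 5.14 and 5.1, without overlap (0.97 ± 0.3 (SE), adjusted p = 0.0177). HIST1H2BC was the third H2B gene whose groups were apart, with 1.71, 2.03, 2.26, 2.07 and 1.7 in H0 and 2.83, 2.33, 2.93, 2.97 and 2.93 on day 1 (0.85 ± 0.27 (SE), adjusted p = 0.0218).

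The other 5 H2B genes that rose had overlapping groups, in each case with a single array or a few arrays of one group inside the range of the other. HIST1H2BG stood at 2.56, 2.73, 3.01, 2.56 and 2.15 in H0 and at 3.41, 2.93, 3.38, 3.76 and 3.82 on day 1 (0.86 ± 0.29 (SE), adjusted p = 0.0281). HIST1H2BM stood at 3.36, 3.59, 3.94, 3.46 and 2.85 and 4.45, 3.85, 4.09, 4.57 and 4.51 (0.86 ± 0.28 (SE), adjusted p = 0.0281). HIST1H2BE, read by a stem-loop probe, stood at -2.36, -2.43, -2.07, -3.09 and -2.86 and -1.33, -1.44, -1.34, -2.02 and -2.33 (0.87 ± 0.29 (SE), adjusted p = 0.0284). These rises were between 1.81-fold and 1.83-fold. HIST2H2BF stood at 3.68, 3.8, 4.1, 3.46 and 2.9 and 4.49, 3.93, 4.14, 4.66 and 4.66 (0.79 ± 0.29 (SE), adjusted p = 0.0444), and HIST1H2BJ at 2.06, 2.32, 2.42, 2.02 and 1.56 and 2.53, 2.41, 3.08, 2.93 and 2.72 (0.66 ± 0.22 (SE), adjusted p = 0.0284).

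Further H2B genes known for polyadenylated transcripts did not pass. HIST1H2BD stood at 3.39, 3.44, 3.75, 3.1 and 2.59 in H0 and at 3.9, 3.41, 3.84, 4.46 and 4.5 on day 1 (0.77 ± 0.31 (SE), adjusted p = 0.0692), and its 95% interval ran from 0.12 to 1.42. HIST1H2BK stood at 3.03, 3.15, 3.61, 3.01 and 2.4 and 3.68, 3.17, 3.62, 4.17 and 4.19 (0.73 ± 0.31 (SE), adjusted p = 0.079). The HIST1H2BD and HIST1H2BK probes share 32 bases in a row and are 92.7% identical over 55 aligned bases, so these values are not independent. HIST2H2BE stood at -1.75, -1.98, -1.58, -2.36 and -2.3 and -1.04, -2.44, -1.91, -1.63 and -1.58, with a change of 0.27 ± 0.25 (SE), adjusted p = 0.453.

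H3 was split, with 5 rises and 3 falls. H3 and H4 together form the central part of the nucleosome. HIST2H3A (chr1:149824626-149824685, plus strand), whose probe ends at the stem-loop shown above, fell from 0.96, 0.21, 2.04, 1.35 and 1.67 in H0 to 0.11, -1.11, -0.4, -1.05 and -0.46 on day 1, without overlap (-1.83 ± 0.46 (SE), adjusted p = 0.00482), and the change was -1.19 with normexp. HIST1H3B (chr6:26031922-26031981, minus strand) fell from 2.56, 1.81, 2.86, 2.29 and 2.67 to 1.3, 0.51, 1.05, 0.61 and 0.96, also without overlap (-1.55 ± 0.38 (SE), adjusted p = 0.00434). HIST1H3I stood at 0.79, 0.47, 1.17, 1.17 and 0.97 in H0 and at 0.05, -0.35, -0.22, -0.43 and -0.38 on day 1 (-1.18 ± 0.32 (SE), adjusted p = 0.00852), and its groups did not overlap either.

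The H3 rises were smaller. HIST2H3D (chr1:120904981-120905040, plus strand) stood at 4.07, 4.75, 5.2, 4.33 and 5.03 in H0 and at 5.91, 5.48, 6.06, 5.01 and 5.91 on day 1 (0.99 ± 0.35 (SE), adjusted p = 0.0365). HIST1H3C (chr6:26045965-26046024, plus strand) stood at 4.94, 5.64, 6.7, 5.42 and 5.63 and 6.46, 6.19, 6.79, 6.43 and 7.32 (0.97 ± 0.31 (SE), adjusted p = 0.0222). In both genes the groups overlapped. HIST1H3D stood at 5.2, 5.86, 6.27, 5.11 and 5.76 and 6.69, 6.22, 6.88, 6.11 and 6.95 (0.93 ± 0.31 (SE), adjusted p = 0.0262), and HIST1H3E at 6.77, 7.33, 7.32, 6.1 and 6.73 and 7.83, 7.52, 7.64, 7.33 and 7.38 (0.69 ± 0.25 (SE), adjusted p = 0.0452). HIST3H3, known as a testis H3 gene, was read by a bright probe in every array, at 8.92, 9.14, 9.17, 8.48 and 9.13 in H0 and 9.95, 9.65, 9.89, 9.42 and 9.6 on day 1. It was the only one of the 5 whose groups did not overlap (0.74 ± 0.19 (SE), adjusted p = 0.00605). HIST1H3H did not pass, with 1.83, 2.36, 2.43, 1.36 and 2.24 in H0 and 3.11, 2.28, 3.11, 1.87 and 2.16 on day 1 (0.46 ± 0.34 (SE), adjusted p = 0.341).

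All H4 genes with a called change fell. HIST1H4C (chr6:26104468-26104527, plus strand), a gene with strong expression in dividing cells, stood at 3.91, 2.98, 3.17, 3.31 and 3.07 in H0 and at 1.26, 1.62, 1.29, 1.11 and 0.93 on day 1. The lowest H0 array lay above the highest irradiated one, and the fall was 4.13-fold (-2.05 ± 0.36 (SE), adjusted p = 4e-04). HIST1H4L (chr6:27840949-27841008, minus strand) fell from 2.01, 1.2, 1.58, 1.78 and 1.54 to 0.48, 0.14, 0.2, -0.04 and -0.35 (-1.54 ± 0.27 (SE), adjusted p = 0.000425), again without overlap. HIST1H4B stood at 5.41, 4.59, 4.58, 4.92 and 4.44 and 4.26, 4.08, 4.09, 4.13 and 3.83 (-0.71 ± 0.21 (SE), adjusted p = 0.0139). HIST1H4D stood at 4.2, 3.45, 3.38, 3.49 and 3.49 and 3.24, 2.35, 3.03, 2.89 and 2.77 (-0.75 ± 0.21 (SE), adjusted p = 0.0106). Neither of these overlapped. HIST1H4J, with 3.0, 2.38, 3.25, 3.45 and 3.2 and 2.11, 2.12, 2.55, 2.07 and 2.32 (-0.82 ± 0.24 (SE), adjusted p = 0.0136), had overlapping groups. HIST1H4H did not pass and stood at 4.96, 4.81, 5.08, 5.0 and 4.62 in H0 and 4.81, 4.58, 5.13, 4.8 and 4.78 on day 1 (-0.07 ± 0.22 (SE), adjusted p = 0.842).

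**Figure D2:**
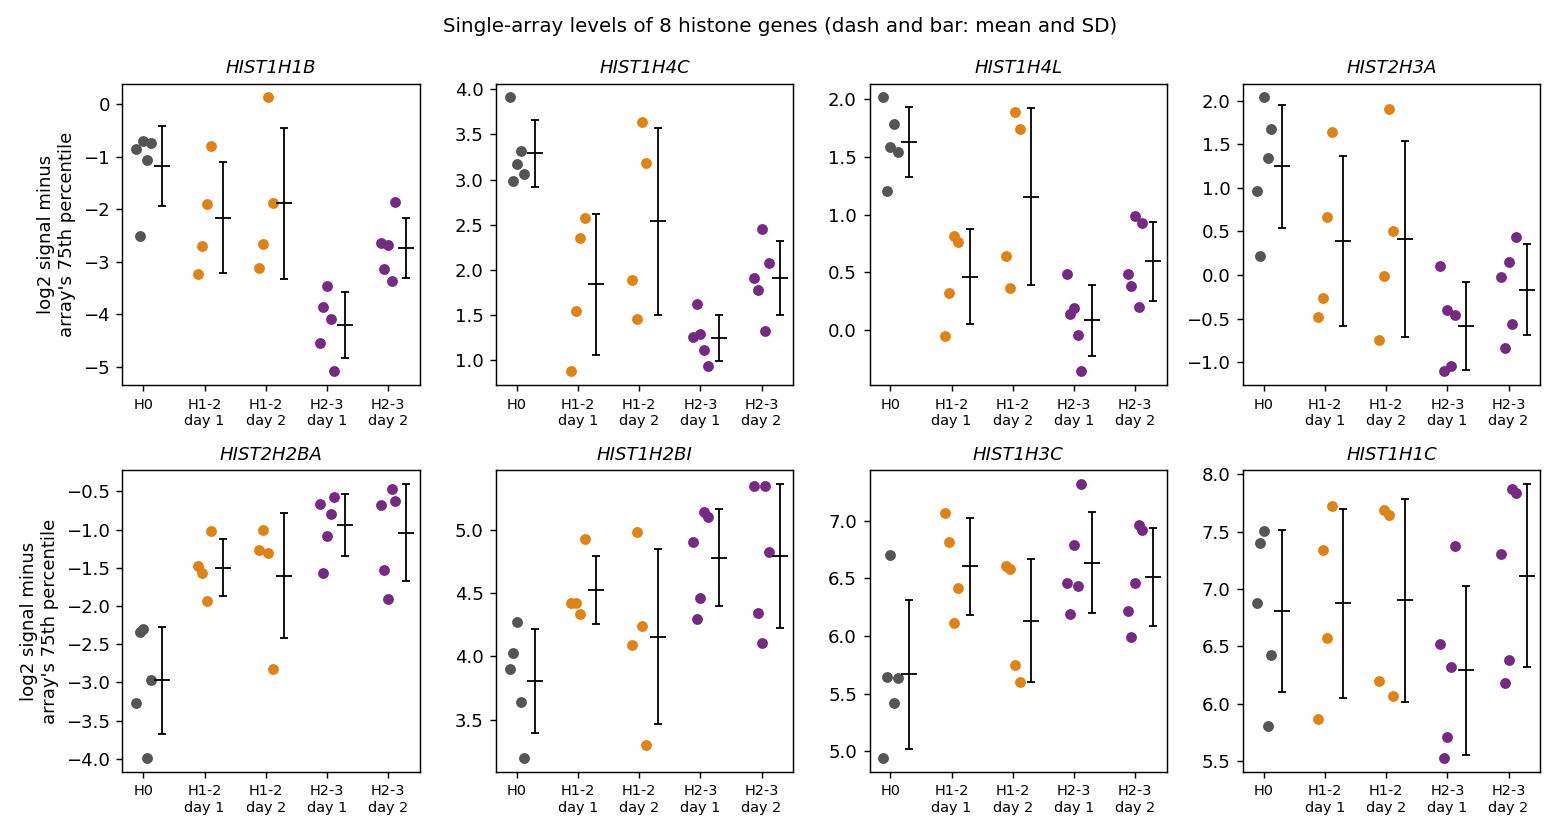
Levels (log2 signal minus the array's 75th percentile, vertical axis) of 8 histone genes on all 23 arrays by group (horizontal axis); each point is an array, the dash is the group mean and the bar its SD. In HIST1H1B, HIST1H4C, HIST1H4L and HIST2H3A no day 1 array of group H2-3 reaches the H0 range, and in HIST2H2BA each lies above it.

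In all, 15 of the 61 genes had H2-3 day 1 arrays that did not overlap the H0 arrays, and 13 of these were called. This is 24.6% of the histone genes, beside 18.8% of all genes without overlap and 28.4% of all genes called. Within slide 3, a single pair of arrays (H2-3 baboon 1 on day 1 against H0 baboon 5) differed by -3.81 in HIST1H1B, -1.81 in HIST1H4C, -1.57 in HIST2H3A, 2.31 in HIST2H2BA and 1.71 in HIST1H2BI. All 27 called genes had the direction of the group difference in this pair. Both arrays of the pair also entered the fit that made the calls, so this shared direction is no separate check. Of the 11 falls, 3 were less than 0.5 times as large as between the groups. These were -0.05 in HIST2H2AC, -0.18 in HIST1H4B and -0.25 in HIST1H4D. Of the 34 genes not called, 6 had the opposite direction, among them HIST1H1C (0.09), HIST1H4H (0.19), HIST1H4I (0.1) and HIST2H4B (0.1). With the slide as a block no histone gene was called (0 of 61), and with the scan day as a block 14 were (6 higher, 8 lower). The H2-3 day 1 count was 17 without H0 baboon 1 (7 higher, 10 lower). How the calls over all genes moved in these fits is not given here, so no loss particular to histone genes is shown.

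On day 2 in group H2-3, 16 histone genes differed from H0 (26.2%), where 14.8% of all genes did. Of these 11 were higher (10.3% of all genes) and 5 lower (4.48% of all genes). Among H2B genes 7 were higher and none lower, and 3 H4 genes were lower and none higher. Class medians were -0.17 for H1, 0.56 for H2A, 0.76 for H2B, 0.60 for H3 and -0.32 for H4, against -0.03 for all genes, and their signs held under the same 6 settings. Both comparisons of group H2-3 use the same H0 arrays, so they are not independent. Every array of day 2 was scanned apart from the H0 arrays, and scan day and group cannot be told apart here.

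HIST2H2BA stood at -0.67, -1.52, -1.9, -0.47 and -0.63 on day 2 (1.94 ± 0.37 (SE), adjusted p = 0.0069), above all 5 H0 arrays, and the change was 0.51 with normexp. HIST1H2BI stood at 5.35, 4.34, 4.11, 5.35 and 4.83 (0.99 ± 0.3 (SE), adjusted p = 0.0321) and HIST1H2BG at 3.99, 3.06, 2.9, 4.11 and 3.6 (0.93 ± 0.29 (SE), adjusted p = 0.0343), each with 1 array inside the H0 range. HIST1H2AC was higher on this day, at 3.52, 2.62, 2.72, 3.71 and 3.46, with no overlap (0.87 ± 0.26 (SE), adjusted p = 0.0324). The mean of its 3 probes changed by 0.31 and did not pass (adjusted p = 0.377). HIST1H2BJ (3.5, 2.65, 2.66, 3.15 and 2.56), HIST1H2AE (4.62, 3.83, 3.94, 4.67 and 4.48 against 3.12, 3.7, 3.76, 3.38 and 3.56 in H0) and HIST3H3 (9.86, 9.53, 9.4, 9.6 and 9.4) also lay apart from H0, with changes of 0.83 ± 0.22 (SE), 0.81 ± 0.26 (SE) and 0.59 ± 0.19 (SE). The other 4 genes that rose had overlapping groups. HIST1H2BC stood at 3.37, 2.42, 2.23, 3.27 and 2.81 (0.87 ± 0.27 (SE)) and HIST1H2BM at 4.9, 3.93, 3.7, 4.73 and 4.28 (0.87 ± 0.28 (SE)). HIST2H2BF stood at 5.01, 4.06, 3.79, 4.92 and 4.49 (0.87 ± 0.29 (SE)) and HIST1H2AK at 5.63, 5.17, 4.96, 5.7 and 5.5 (0.64 ± 0.19 (SE)).

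The falls of day 2 were in H3 and H4. HIST1H4C stood at 1.91, 1.78, 2.45, 1.33 and 2.08 (-1.38 ± 0.36 (SE), adjusted p = 0.0183) and HIST1H4L at 0.49, 0.39, 0.98, 0.2 and 0.92 (-1.03 ± 0.27 (SE), adjusted p = 0.0196), both below all H0 arrays. HIST2H3A stood at -0.03, -0.84, 0.15, -0.56 and 0.44 (-1.42 ± 0.46 (SE), adjusted p = 0.0411) and HIST1H3B at 2.06, 0.6, 1.41, 0.88 and 1.31 (-1.18 ± 0.38 (SE), adjusted p = 0.0411), each with 1 array inside the H0 range. HIST1H4B stood at 4.48, 3.82, 4.1, 3.99 and 4.16 (-0.68 ± 0.21 (SE), adjusted p = 0.0345). HIST1H1B stood at -2.65, -3.14, -2.68, -3.37 and -1.86, well above background on 4 of 5 arrays, and did not pass (-1.56 ± 0.53 (SE), adjusted p = 0.0501). In all, 10 genes had non-overlapping groups and 7 of them were called. This is 16.4% of the histone genes, beside 8.62% of all genes without overlap and 14.8% of all genes called. The count of called histone genes fell to 2 without H0 baboon 1, 4 without H0 baboon 4 and 5 without H0 baboon 5. It fell to 1 without the day 2 array of H2-3 baboon 4 and to 4 without that of H2-3 baboon 5. The share of all genes called in these fits is not given here. After quantile normalization 2 genes were higher (3.28%, all genes 7.67%) and 6 lower (9.84%, all genes 4.98%), and with the same percentile over detected probes only, 4 were higher (6.56%, all genes 7.42%) and 9 lower (14.8%, all genes 9.61%). Under both, as on day 1, the share of rises lay below that of all genes.

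In group H1-2 on day 1, 4 of 61 histone genes were called (6.56%), near the share of all genes (8.59%). Of these 1 was higher (4.18% of all genes) and 3 were lower (4.42% of all genes), and all 4 lay apart from H0. In all, 11 of the 61 genes had arrays that did not overlap the H0 arrays (18%), beside 10.4% of all genes. HIST2H2BA stood at -1.48, -1.57, -1.93 and -1.02 (1.48 ± 0.39 (SE), adjusted p = 0.0262), and with normexp its change was 0.35 and did not pass (adjusted p = 0.138). The falls were all in H4. HIST1H4C stood at 0.88, 1.55, 2.36 and 2.58 (-1.45 ± 0.38 (SE), adjusted p = 0.0266), HIST1H4L at -0.05, 0.33, 0.82 and 0.76 (-1.16 ± 0.29 (SE), adjusted p = 0.0221) and HIST1H4B at 3.85, 4.16, 4.16 and 4.14 (-0.71 ± 0.22 (SE), adjusted p = 0.0484). Class medians were -0.17, 0.43, 0.46, 0.61 and -0.46 for H1, H2A, H2B, H3 and H4, against 0.09 for all genes. The comparison shares its H0 arrays with that of H2-3. The calls rest on single arrays. None was left without H0 baboon 1 or without the day 1 array of H1-2 baboon 1 or H1-2 baboon 2. With H0 baboon 4 or H0 baboon 5 left out, 1 was left, and 2 without the day 1 array of H1-2 baboon 4. Without H0 baboon 3, 8 were called. With the slide or the scan day as a block, none was called. These counts are not set beside the share of all genes called in the same fits.

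On day 2 in group H1-2 no histone gene and no gene at all was called by limma (0% of all genes), and 2 histone genes had an unadjusted p under 0.05. These were HIST2H2BA at -1.27, -1.01, -1.31 and -2.82 (1.37 ± 0.39 (SE), adjusted p = 0.315) and HIST1H2AA (1.19 ± 0.46 (SE), adjusted p = 0.387). HIST1H4C stood at 1.89, 1.46, 3.63 and 3.19, with baboons 1 and 2 below the H0 range and baboons 3 and 4 inside it. No histone gene had arrays apart from H0, beside 1.72% of all genes. Class medians were 0.06 for H1, 0.30 for H2A, 0.23 for H2B, 0.19 for H3 and -0.14 for H4, against -0.01 for all genes.

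The 2 HARS categories were then compared on the same day. No histone gene was called on day 1 or on day 2 (0% of all genes on each day), and 3 and 5 of them had an unadjusted p under 0.05. On day 1 these were HIST1H1B (adjusted p = 0.264), HIST1H3I (-0.91 ± 0.34 (SE), adjusted p = 0.583) and HIST1H1D (-0.65 ± 0.26 (SE), adjusted p = 0.671), all lower in H2-3. HIST1H1B stood at -3.23, -2.71, -1.9 and -0.81 in H1-2, where its probe was well above background on 2 of 4 arrays, against 0 of 5 in H2-3. Its difference between the means is therefore a bound, at least 1.81-fold lower in H2-3, with no allowance for sampling error. The 95% intervals were wide: that of the difference between categories on day 1 ran from -1.39 to 0.2 in HIST1H4C, from -1.97 to 0.03 in HIST2H3A and from -0.24 to 1.37 in HIST2H2BA. The missing calls therefore do not show that the categories were alike.

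From day 1 to day 2 no histone gene was called in H1-2 (0% of all genes, 5 histone genes at an unadjusted p under 0.05). None was called in H2-3 either (2.97% of all genes, 2 at an unadjusted p under 0.05). In H2-3 these were HIST1H1B (adjusted p = 0.0948) and HIST1H2BE (-0.72 ± 0.29 (SE), adjusted p = 0.12). With the baboon as a random block, which uses the pairing of the days, both passed, at adjusted p = 0.0365 and 0.0427. The paired fit with the baboon as a fixed term, within H2-3 alone, called no histone gene. The HIST1H1B probe was well above background on 0 of 5 H2-3 arrays of day 1 and on 4 of 5 of day 2. Its rise between the means is therefore a bound, at least 1.21-fold, with no allowance for sampling error. All of these fits read its undetected signal on day 1. HIST1H2BE was lower on day 2 in 5 of 5 H2-3 baboons, and its probe was detected above background on all 5 arrays of day 1 and on 3 of day 2. HIST1H4C was higher on day 2 in 5 of 5 H2-3 baboons, by 0.65, 0.16, 1.15, 0.21 and 1.15, and in 3 of 4 H1-2 baboons, by 1.01, -0.09, 1.28 and 0.61. Its mean change in H2-3 was 0.67 ± 0.36 (SE) and did not pass with or without the block (adjusted p = 0.121 and 0.244). The difference in day change between the categories was called in no histone gene (0% of all genes, 1 at an unadjusted p under 0.05), and in HIST1H4C its 95% interval ran from -1.16 to 1.09. Day and scan day cannot be told apart in the day changes.

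More than 1 probe was kept for 8 genes, and these probes show how far a gene's value depends on the sequence read. In the fit over 27215 probes, of which 28.6% were called for H2-3 on day 1, both HIST1H4L probes fell (-1.54 and -1.64, 105 bases apart). The HIST1H4D probe used above fell by 0.75 on the log2 scale. The second HIST1H4D probe, 49 bases away, stood at 0.95, 0.33, 0.67, 0.98 and 0.8 in H0 and at -0.95, -1.22, -1.24, -1.39 and -1.55 on day 1, a change of -2.02 ± 0.33 (SE, adjusted p = 0.000214), with no overlap. HIST1H4K gave -0.50 ± 0.19 (SE, adjusted p = 0.0507) with the probe used above, which shares 26 bases with HIST1H4H. Its stem-loop probe, 135 bases away, stood at -0.05, -0.55, -0.19, 0.13 and 0.22 in H0 and at -0.98, -1.32, -1.0, -1.74 and -1.43 on day 1, a change of -1.21 ± 0.27 (SE, adjusted p = 0.00232). In both genes the dimmer probe fell further than the brighter one. The second HIST1H4D probe shares 18 bases in a row with the HIST1H4C probe. The HIST1H4K stem-loop probe shares 37 with the HIST1H4J probe. The gene behind these larger falls is therefore uncertain.

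The 2 HIST1H2AM probes, 70 bases apart, disagreed in direction. The brighter one changed by 0.16 ± 0.23 (SE, adjusted p = 0.654) and the dimmer one by -1.12 ± 0.38 (SE, adjusted p = 0.0318). For HIST2H2BF all 3 probes rose, by 0.79, 0.75 and 1.65, and the probe with the largest rise lies 386529 bases from the one used, by the files' positions. HIST1H2BK gave 0.73 with the probe used and 1.20 with the other (adjusted p = 0.00492), and these lie 8246 bases apart. The HIST1H2AC probes gave 0.38, 0.75 and 0.02 over 14419 bases, and none of them passed. HIST1H3H gave 0.46 and, with its stem-loop probe, 0.21.

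The 6 stem-loop probes did not move one way. HIST2H3A (-1.83) and the HIST1H4K probe (-1.21) fell and HIST1H2BE (0.87) rose. HIST1H2BF had a change of -1.11 ± 0.54 (SE) and did not pass (adjusted p = 0.131). Its probe was well above background on none of the 5 arrays of H2-3 on day 1. The difference between the means is therefore a bound, at least 1.64-fold lower, with no allowance for sampling error. HIST1H2AI (0.38) and HIST1H3H (0.21) did not pass, and the HIST1H2AI probe was well above background on 9 of 23 arrays.

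**Figure D3:**
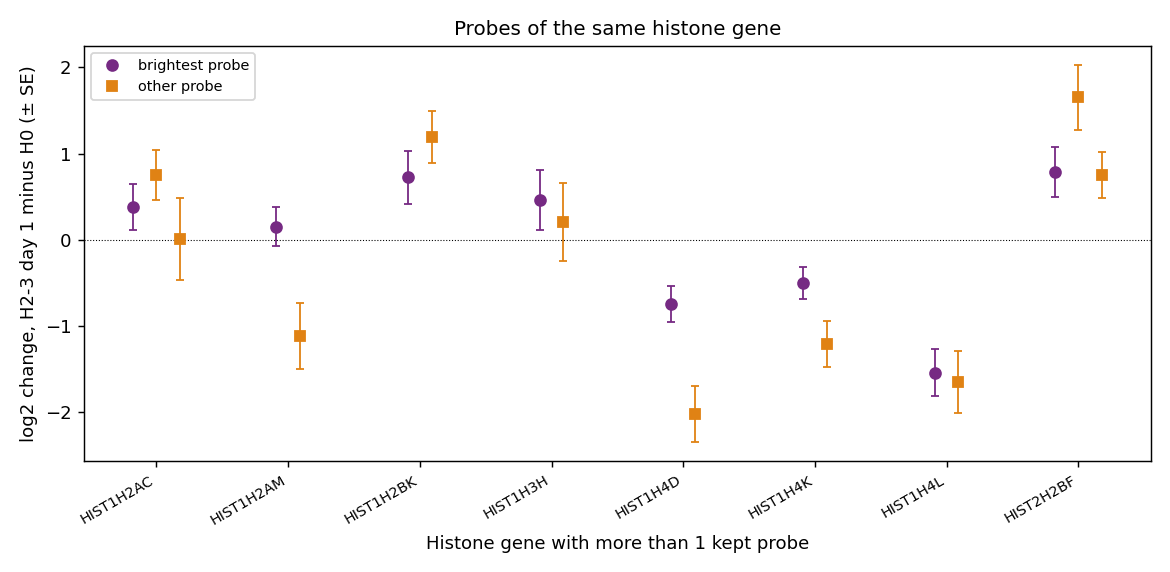
Log2 change against H0 in group H2-3 on day 1 (vertical axis) for every kept probe of the 8 histone genes with more than 1 probe (horizontal axis); circles are the brightest probes, squares the others, and bars the standard error. The second HIST1H4D probe lies at -2.02 and the one used at -0.75, and the HIST1H2AM probes lie on opposite sides of 0.

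Genes whose probes share bases also varied together, as a description with no test. The measure was the correlation of deviations from the group means over 23 arrays, among the 53 genes detected on every array. Its median was 0.84 over 34 pairs that share at least 15 bases, 0.64 over 263 other pairs of the same class and 0.26 over 1082 pairs of different classes. The points share arrays and scaling. H2B pairs had the highest median (0.87 over 105 pairs) and H3 with H4 the lowest (-0.19 over 143 pairs). Among the 33 genes whose probes share bases, 11 rose and 4 fell in H2-3 on day 1 (median change 0.59). Among the other 28, 5 rose and 7 fell (median change 0.24). Of all genes tested 15% rose and 13.5% fell. Most rises were thus in genes whose probes share bases, where values of different genes may not be independent. Among H2B genes the probes of HIST2H2BA, HIST1H2BB, HIST1H2BN and HIST2H2BE share under 15 bases in a row with any other histone probe. The values of the other H2B genes may not be separate measurements. A shared run did not always go with a high correlation, which was -0.07 for HIST1H4F with HIST1H4K. Pairs with HIST1H2BE, which was not detected on every array, lay outside these sets (0.03 with HIST1H2BF and -0.22 with HIST3H2BB). Probes were compared with each other and not with transcripts, so a short run does not show that a probe reads 1 gene.

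A pattern over slides or baboons rather than groups was seen in H3, and it was chosen after its values were seen. HIST1H3J (chr6:27858203-27858262, minus strand) stood at 5.89 to 6.63 on the 10 irradiated arrays of slides 3, 4 and 6 and at 3.66 to 4.79 on the 8 irradiated arrays of slides 5 and 7, and the H0 arrays spanned 3.22 to 5.60. HIST1H3F (chr6:26250588-26250647, minus strand) stood at 3.96 to 4.76 and at 2.26 to 3.39, with 2.23 to 3.82 in H0. Slides 3, 4 and 6 carry H1-2 baboons 1 and 2 and H2-3 baboons 1, 2 and 3 on both days. In both genes all 9 baboons were on the same side of their group's mean on both days. This largely follows from the split by which the genes were chosen. Such a split was present in 2 of 61 histone genes (3.28%) and in 207 of all 21130 genes (0.98%). Because the same baboons were placed together on both days, animal and slide cannot be told apart.

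**Figure D4:**
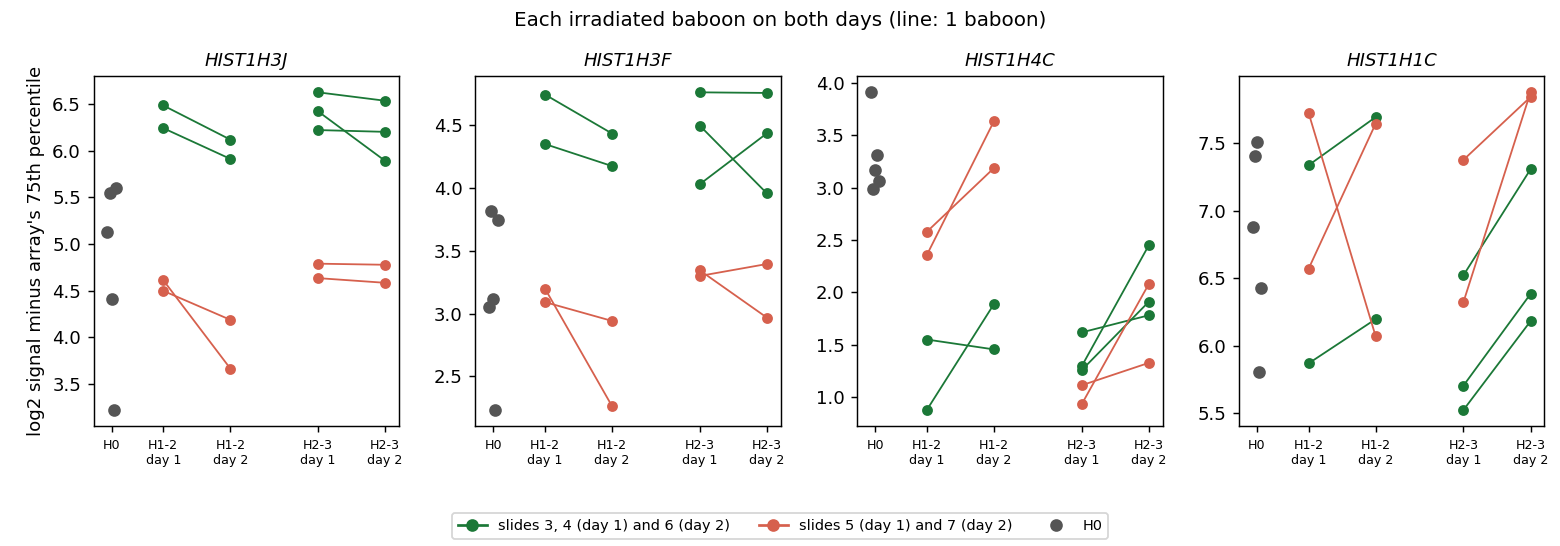
Levels (log2 signal minus the array's 75th percentile, vertical axis) of HIST1H3J, HIST1H3F, HIST1H4C and HIST1H1C in each irradiated baboon on both days (horizontal axis), with a line joining the 2 arrays of a baboon, green for slides 3, 4 and 6, red for slides 5 and 7, and grey points for the H0 arrays. The green and red lines keep apart in HIST1H3J and HIST1H3F, and the H2-3 lines of HIST1H4C all rise between the days and end below the H0 arrays.

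Other genes of histone supply were taken from lists. Counts in these lists and in the cell markers below are to be read beside the shares of all genes. In H2-3, 15% of all genes rose and 13.5% fell on day 1, and 10.3% rose and 4.48% fell on day 2. In H1-2 on day 1, 4.18% rose and 4.42% fell. Of 27 measured S phase genes, which act in DNA replication and nucleotide supply, 13 fell and 1 rose in H2-3 on day 1 (median change -0.84), and 4 fell and 2 rose on day 2 (-0.52). GINS1, a subunit of the replicative helicase, changed by -1.45 ± 0.22 (SE, adjusted p = 0.000143) on day 1. FEN1, the flap endonuclease, was not well above background on any H2-3 array of day 1 and was at least 1.55-fold lower (adjusted p = 0.000287). The gene that rose on day 1 was TYMS, thymidylate synthase, with 2.35 ± 0.45 (SE, adjusted p = 0.000742). In H1-2 on day 1, 2 of these genes fell and 1 rose, and on day 2 none was called. The mean level of the 27 genes lay between -0.54 and -0.05 in the H0 arrays and between -1.36 and -0.91 in H2-3 on day 1, without overlap.

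Of 18 measured histone chaperones, which carry histones to DNA, 5 fell and 2 rose in H2-3 on day 1 (median -0.21), and 1 fell and 2 rose on day 2. CHAF1A, the large subunit of the replication-coupled assembly factor, changed by -2.15 ± 0.36 (SE, adjusted p = 0.000277) and SSRP1, a subunit of the FACT complex, by -1.25 ± 0.25 (SE, adjusted p = 0.00107) on day 1. Of 23 measured genes of histone mRNA synthesis and processing, 2 rose and 2 fell on day 1, and 5 rose and none fell on day 2. On day 1 this is a smaller share than the 28.4% of all genes called. ATM, a kinase of the damage response, changed by -1.53 ± 0.31 (SE, adjusted p = 0.00115) and ZCCHC6, a uridyltransferase, by 1.66 ± 0.37 (SE, adjusted p = 0.00209). SLBP, the stem-loop binding protein, did not pass, at 0.18 ± 0.29 (SE, adjusted p = 0.684). Of 10 measured variant histones made outside S phase, 3 rose and 2 fell on day 1, and 2 rose on day 2. H2AFY, the macroH2A gene, changed by 1.01 ± 0.21 (SE, adjusted p = 0.00118). CENPA, the centromeric H3 variant, was at background on all 5 arrays of day 1 and at least 1.42-fold lower (adjusted p = 0.0032). In H1-2 on day 1 the chaperones had no rise and 1 fall, the processing genes 1 of each, and the variants 1 rise.

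Blood cell marker levels moved with these changes. In H2-3 on day 1, markers of B cells (6 of 8 measured), T cells (9 of 10) and NK cells (8 of 9) fell, and 9 of 9 neutrophil and 7 of 9 monocyte markers rose. Averaged over markers, the B cell level lay between 3.00 and 3.93 in H0 and between 0.04 and 1.74 in H2-3 on day 1, the T cell level between 3.41 and 4.31 and between 0.39 and 2.76, and the NK cell level between 1.67 and 3.33 and between -0.43 and 1.15. Neutrophil markers lay between 3.03 and 5.92 and between 6.22 and 6.95, and monocyte markers between 3.99 and 5.02 and between 5.56 and 6.01. None of these 5 pairs of ranges overlapped. Platelet markers (1 of 10 higher) and erythroid markers (none of 9) did overlap, at 1.76 to 3.20 against 2.43 to 4.13 and at 6.20 to 7.35 against 6.43 to 7.21.

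On day 2 in H2-3, 7 B cell, 2 T cell and 2 NK cell markers were lower and 5 neutrophil, 6 monocyte and 5 platelet markers higher. In H1-2 on day 1, 4 T cell and 6 NK cell markers fell and 7 neutrophil and 3 monocyte markers rose. All 7 blood cell types were represented, but MS4A1 and PAX5, which define B cells, were well above background on 1 and 0 of 23 arrays. The part of these markers in the histone changes was not tested. In bulk blood, fewer cells of a type and less RNA per cell cannot be told apart.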

How the data were processed

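RNA from 23 whole-blood samples was hybridised to 1-colour Agilent arrays of human design, with an array for each sample. The scans were processed with Agilent Feature Extraction (version 10.7.3.1), per the submitters' processing notes. Per the file headers, the deposited files give linear, background-subtracted intensity for each of 62976 spots. A second deposited table gives log2 values, which correlated with the scanner values at 0.998 to 1.000 within an array and had a median of 4.70 in each column. How its probes were chosen, its centring and the genome build behind it are not given in the sources used here, and it served as an alternative.

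Here log2 of the processed signal was taken, control spots were left out, spots of a probe were averaged and the array's 75th percentile was subtracted. Probes well above background on at least 4 arrays were kept (27215 of 50599), and the brightest kept probe stood for its gene (21130 genes). One fit with 5 group means used limma 3.58.1 in R 4.3.3 (statmod 1.5.0), two-sided, with Benjamini-Hochberg adjustment over all genes at 0.05. The computation was tested on simulated data. The titles tie the days of a baboon together. Deviations of the 2 arrays of a baboon correlated at 0.06 to 0.39 in H1-2 and at 0.05 to 0.44 in H2-3, and the blocked fit took the baboon as a random block (correlation 0.25).

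Called genes are named where 6 or fewer, otherwise the 4 largest rises and falls. Single-array values are given for called genes and for HIST1H1C, HIST1H2AC, HIST1H2BD, HIST1H2BK, HIST1H2BG, HIST2H2BE, HIST1H3H and HIST1H4H, of a set that also held HIST2H2AA3 and HIST4H4. In gene lists the 2 genes with the smallest p over the groups are named, and TYMS and SLBP were chosen after their values were seen. The genes and lists were chosen with earlier results of these data known. Probe sequences were read from the deposited files. Alternatives were background correction (normexp, offset 50), scaling, filter, probe rule, the deposited table, the samples fitted, and slide, scan day and baboon as blocks.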

Additional observations from a re-analysis of the deposited data

Results flagged for a closer look

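Single arrays that stood apart from the rest of their group were looked for in 175 groups of 4 or 5 arrays, over 35 genes named or called, with Dixon's criterion. It marked 7 of them, and chance marks about 1 in 20 groups. H0 baboon 2 had the lowest HIST1H1B level of its group, -2.51, with the nearest at -1.06. H2-3 baboon 2 on day 1 had the lowest HIST1H2BC level, 2.33. H1-2 baboon 4 on day 1 had the highest levels of HIST1H2BI, 4.93, and of HIST1H2BK, 4.09. H1-2 baboon 1 on day 1 had the lowest HIST1H4B level, 3.85. H0 baboon 1 had the highest HIST1H4D level, 4.2, with the nearest at 3.49. H1-2 baboon 4 on day 2 had the lowest HIST2H2BA level, -2.82. In no gene examined did all baboons of one category move one way between the days and all of the other the opposite way.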

How the results depend on the processing

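No called change of a named gene reversed its direction under any alternative that could be run. Changes that were not called were followed only between the arrays of slide 3, where 6 of 34 turned, HIST1H1C and HIST1H4H among them. Counts of called histone genes moved. The share of all genes called is not set beside the counts below, so a movement particular to histone genes is not shown. In H1-2 on day 1 (4 called) the count was 7 after quantile normalization and 7 in the deposited table. It was 0 with only the compared groups in the fit, 0 with the slide as a block and 0 with the scan day as a block. With a single array left out it was 0 to 8. In H2-3 on day 1 (27 called) the count was 0 with the slide as a block and 14 with the scan day as a block. It was 17 to 33 with a single array left out, and 18 to 30 under the others. In H2-3 on day 2 (16 called) the count was 25 with normexp, 8 after quantile normalization, 4 with no filter and 8 in the deposited table. It was 7 with only the compared groups and 7 with the slide as a random block (chosen after seeing the data). With a single array left out it was 1 to 22. For the day change in H2-3 (0 called) the paired fit with the replicate block, the baboon as a random block, called 2. With the baboon as a fixed term none was called. Leaving a single array out called 0 to 1. The replicate block moved no other count of calls by more than 1.5 times. Slide and scan day blocks could not be fitted for day 2 against H0 or for the day changes. The cause of these movements was not tested. Dim probes limit HIST1H1B, HIST1H2BE, HIST1H2BF, HIST1H2AI and HIST2H2BA.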
